A study of Homo sapiens with 2 samples.

Results

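Peaks of a NeuroD1 ChIP-seq list were examined at 31 genes that encode subunits of the BAF (SWI/SNF) chromatin remodellers. A gene was counted as bound when a peak overlapped its RefSeq body or lay up to 3 kb from either end, and 19 of the 31 genes were bound (61.3%). By the same rule, 4283 of 20037 protein-coding genes were bound (21.4%), and 25.2% of protein-coding genes of like length. The family was selected on the peaks of this list, in which SMARCD2 carries the highest fold enrichment, so the count of bound genes is a description and no test was made on it. The neuronal subunits ACTL6B, DPF1, DPF3 and SS18L1 had a peak at 2 of 4 genes, and the other subunits at 17 of 27.

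The study profiled the MYCN-amplified neuroblastoma line IMR-32, wild type by its label, with 1 ChIP library made with a NeuroD1 antibody and 1 input library, which is chromatin sequenced without the antibody step. The labels give no treatment and no other group, and the cells are 1 tumour line. The peak list of the ChIP library is the only file used, and the input was not analysed here on its own. The labels name a NeuroD1 antibody, whereas the supplementary ChIP-seq methods name an antibody to H3K27Ac, and the list was used as it is labelled. The paper lists H3K27Ac as a separate data set made by another method, CUT&Tag. It also reports that NeuroD1 motifs were enriched at the binding sites of its NeuroD1 ChIP-seq.

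BAF complexes use the energy of ATP to slide or evict nucleosomes and so open chromatin at promoters and enhancers. Canonical BAF, PBAF and non-canonical BAF share an ATPase and several core subunits, and differ in others. As neural progenitors leave the cell cycle, several subunits of the progenitor complex are exchanged for neuronal paralogues, and NeuroD1 is a proneural bHLH factor that binds the E-box CANNTG with E-protein partners.

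The list held 6183 peaks with a median width of 220 bp. Fold enrichment, the ChIP pileup at the summit divided by the local background after adding 1 to both, had a median of 6.79 and quartiles of 5.79 and 8.68. The reads behind each value were solved from the deposited columns, with a median of 17 ChIP reads at a summit against a background of 1.31 reads. There was no replicate, so the ranges given below in square brackets are exact Poisson 95% intervals of the summit reads, which cover counting error only. The total depth of the library is unknown. The median background at the peaks was highest on chromosomes 17 (2.37), 1 (1.65), 12 (1.61) and 6 (1.53).

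SMARCD2, a core subunit of the SMARCD family known for its part in granulocyte development, carried the highest peak of the list. The peak spanned 714 bp at chr17:63842503-63843216 (hg38) and covered the start of the gene, which lies on the minus strand. Its summit was 76 bases before the first listed start. The fold enrichment was 70.0 [61.3 to 79.7], from 229 ChIP reads [200 to 261] against a background of 2.22, and the −log10 q was 347. It ranked 1 of 6183 on both measures, and the next values in the list were 61.3-fold and, for −log10 q, 215. The background at this summit was close to the median of chromosome 17. Its fold enrichment was 3.47 times that of the next highest peak at a BAF gene, and no interval of another BAF peak reached the interval of SMARCD2.

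The sequence under the summit is shown because it carries the highest peak. It is the minus strand at chr17:63842686-63842935, from 250 bases to 1 base before the start (RefSeq, GRCh38.p14), written 5′ to 3′ with copies of CCCGGA in capitals.
SMARCD2: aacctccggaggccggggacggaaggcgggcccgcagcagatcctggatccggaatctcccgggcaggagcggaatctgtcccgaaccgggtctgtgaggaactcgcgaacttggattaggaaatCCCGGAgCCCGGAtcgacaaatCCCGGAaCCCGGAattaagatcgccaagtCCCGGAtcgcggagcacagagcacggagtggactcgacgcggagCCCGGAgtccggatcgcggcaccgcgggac

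The stretch held 6 copies of CCCGGA, all on the strand of the gene, with first bases 125, 118, 103, 96, 74 and 30 before the start. The summit at 76 bases therefore lay beside the fifth copy. The word was chosen after the sequence was seen. Counted on both strands, as CCCGGA or TCCGGG, 3 of 22199 promoter windows of protein-coding genes held as many copies (0.0135%), those of ADPRHL1, ITIH5 and SMARCD2, and the median window held 0. A promoter window here is 250 bases before to 50 after a listed start. No peak summit lay in the windows of ADPRHL1 and ITIH5. The window at this SMARCD2 start held no CANNTG. The window of another listed start, at chr17:63842466, did hold CANNTG, with 3 copies of CCCGGA or TCCGGG. That window overlaps the peak but not its summit. A window at a start outside the peak, at chr17:63838728, held CANNTG as well.

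**Figure D1:**
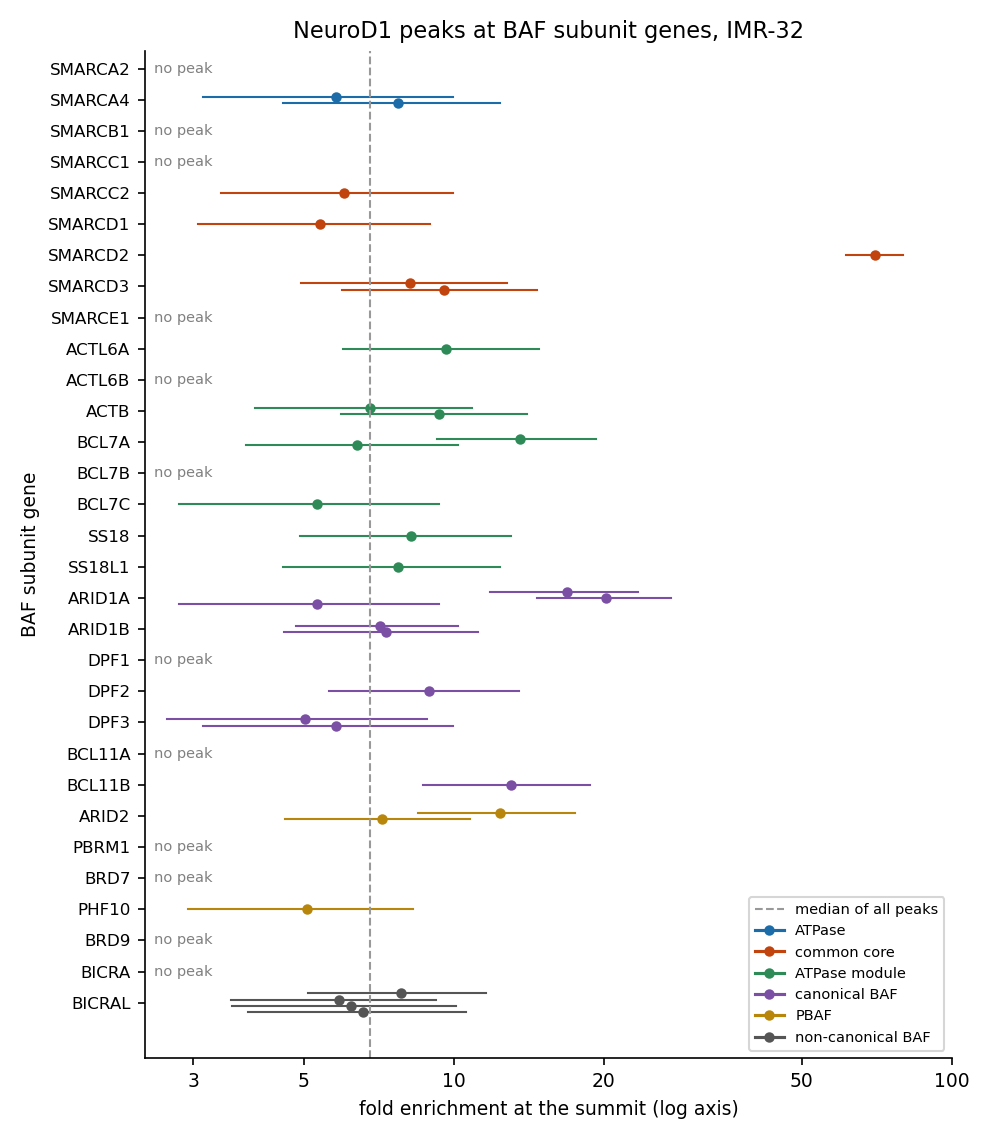
Fold enrichment at the summit (log axis) of each peak within 3 kb of a BAF subunit gene, by role, with exact Poisson 95% intervals of the summit reads and the median of all 6183 peaks marked. SMARCD2 at 70.0 stands apart from the other peaks, which lie between 5.02 and 20.2, and 12 genes have no peak.

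Apart from SMARCD2, the peaks at BAF genes were of ordinary height for this list. The 31 peaks at the 19 bound genes had a median fold enrichment of 7.32, and 7.26 without SMARCD2, against 6.79 over all peaks. The intervals of 25 of them held the median of all peaks, 6 lay above it and 0 below. Intervals on few reads are wide, and matching counts over all peaks are not given here. Above the upper quartile of all peaks lay 10 of the BAF peaks (32.3%). A fold enrichment over 10 was seen for 6 peaks at 5 genes (19.4% of the BAF peaks, against 15.3% of all peaks). Of the BAF peaks, 7 had a −log10 q under 5, where the median of all peaks was 7.67. The matching share of all peaks under 5 is not given here. Summit reads of the BAF peaks ran from 10 to 229 with a median of 17, and their background from 1.04 to 3.0. The value of 1.04 is the lowest background of the list and the median on most chromosomes. At peaks that share it, fold enrichment follows the read count alone.

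**Figure D2:**
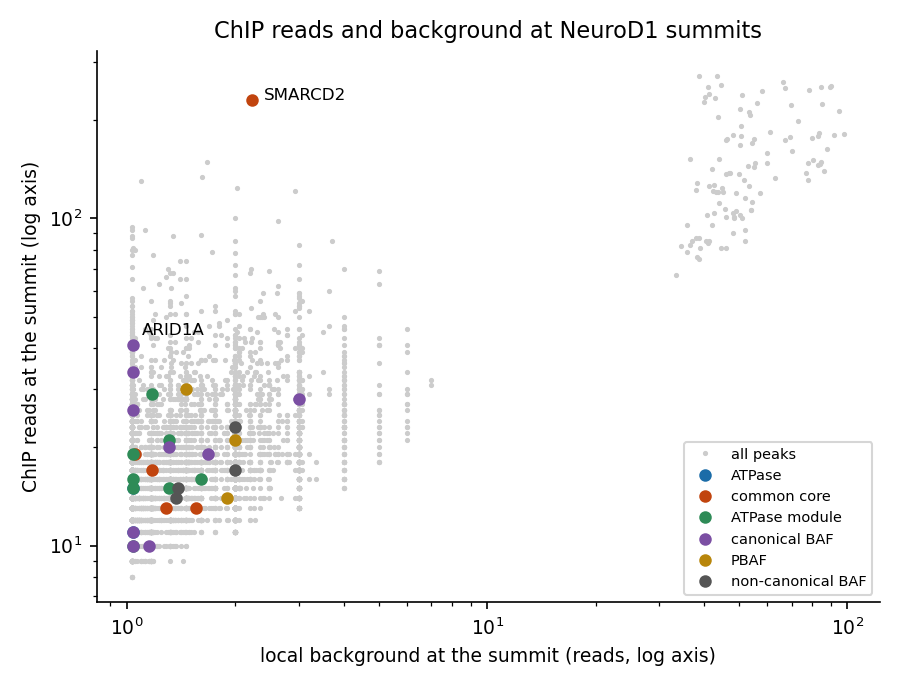
Solved ChIP reads at the summit against local background (both log axes) for all 6183 peaks, with the peaks at BAF genes marked and some points overlapping. Leaving aside 112 peaks with a background above 10, at the right, SMARCD2 has the most reads (229, next 148), and the BAF peaks other than SMARCD2 lie at 10 to 41 reads.

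Of the alternative ATPases, SMARCA4 was bound and SMARCA2 was not. SMARCA4, the more widely used motor of BAF in dividing cells, had a peak on each side of its start. The peak at chr19:10960900-10961059 had its summit 110 bases before the start, with a fold enrichment of 5.79 [3.14 to 9.97] and 11 reads. The peak at chr19:10961211-10961435 had its summit 313 bases after the start, with a fold enrichment of 7.71 [4.53 to 12.4] and 15 reads. The intervals overlapped, so the heights of the pair could not be told apart at this depth. The nearest peak to SMARCA2 lay 40.8 kb away.

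In the group listed here as common core, the 3 SMARCD paralogues and SMARCC2 were bound (4 of 7 genes, 5 peaks). Of genes of like length, 23.2% were bound. SMARCD1 had a low peak at chr12:50085214-50085370, 107 bases before the start, with a fold enrichment of 5.39 [3.06 to 8.94] and a −log10 q of 4.34. The ion channel gene ASIC1 also lay within 3 kb of it. SMARCD3, the paralogue known from heart and muscle development, had no peak at its first start and 2 peaks inside the gene. One at chr7:151248616-151248793 had a fold enrichment of 8.15 and its summit 22 bases before an inner start, and the other at chr7:151251627-151252027 had a fold enrichment of 9.57 and its summit 3031 bases before that start. SMARCC2, a scaffold of the complex, had a peak 98 bp from its body at chr12:56189581-56189751 with a fold enrichment of 6.01 [3.41 to 9.97]. SMARCB1, the subunit lost in rhabdoid tumours, the scaffold SMARCC1 and the DNA-binding subunit SMARCE1 had no peak within 3 kb. The nearest peaks to them lay 265, 42.9 and 134 kb away.

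The starts of SMARCA4 and SMARCD1 and the first start of SMARCD3 are shown for comparison with SMARCD2. The first pair lies on the plus strand at chr19:10960850-10960990 and chr12:50085162-50085302, from 180 to 40 bases before the start, and holds no CANNTG. The SMARCD2 word CCCGGA or TCCGGG, which is not capitalised here, occurred in 2 copies in the window of SMARCD1, 1 of them within the printed stretch, and in 1 copy in that of SMARCA4, outside it. The SMARCD3 stretch lies on the minus strand at chr7:151277319-151277369, from 220 to 170 bases before a start without a peak, with CAGATG and CATCTG, an E-box form bound by NeuroD1 read on either strand, in capitals.
SMARCA4: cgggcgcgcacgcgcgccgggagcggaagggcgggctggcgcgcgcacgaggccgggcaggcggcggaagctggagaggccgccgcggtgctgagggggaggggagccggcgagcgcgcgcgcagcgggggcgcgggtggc
SMARCD1: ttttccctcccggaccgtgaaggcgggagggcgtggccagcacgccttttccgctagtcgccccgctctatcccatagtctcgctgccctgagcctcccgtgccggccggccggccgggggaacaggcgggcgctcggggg
SMARCD3: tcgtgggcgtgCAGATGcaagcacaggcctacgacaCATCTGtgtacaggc

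The ATPase module joins actin-related proteins, BCL7 proteins and SS18 or its paralogue to the motor. In it, 6 of 8 genes were bound with 8 peaks, against 21.4% of genes of like length. BCL7A, a gene named for its rearrangement in B-cell lymphoma, had the highest of the 8 peaks at chr12:122023815-122024193, 2076 bases after the start, with a fold enrichment of 13.6 [9.24 to 19.3] and 29 reads. A second peak lay 2156 bp beyond the body with a fold enrichment of 6.4. BCL7C had a peak of 5.31 on 10 reads, 18802 bases after its start, and the nearest peak to BCL7B lay 13.6 kb away. The actin gene ACTB, the shortest of the family at 3.45 kb, had a peak of 6.79 inside the gene and one of 9.33 lying 866 bp from its body.

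Of the progenitor and neuronal paralogues in this module, ACTL6A, SS18 and SS18L1 were bound and ACTL6B was not. ACTL6A, the actin-related subunit of progenitor BAF, had a peak overlapping an end of its body at chr3:179562711-179562992 with a fold enrichment of 9.64 [6.0 to 14.8] and 19 reads. Its neuronal counterpart ACTL6B had none, and the nearest peak lay 16.9 kb away. SS18, known for its fusion to SSX in synovial sarcoma, had a peak of 8.2 with its summit 125 bases before an inner start, on 16 reads. Its neuronal paralogue SS18L1, a calcium-responsive activator of dendrite growth, had a peak of 7.71 on 15 reads, 301 bases before the start, and the proteasome gene PSMA7 also lay within 3 kb of it. The values of SS18 and SS18L1 differed by less than their counting error.

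Among the subunits of canonical BAF, 5 of 7 genes were bound, with 9 peaks, against 27.9% of genes of like length. ARID1A, the DNA-binding subunit mutated in many cancers, neuroblastoma among them, had the strongest signal after SMARCD2. Its peak at chr1:26695462-26695836 had a fold enrichment of 20.2 [14.7 to 27.3] on 41 reads, ranked 90, and lay with its summit 381 bases before the start. A peak at chr1:26692861-26693362, 2653 bp from the body, had 16.9 [11.8 to 23.4] on 34 reads and ranked 146. Both lay nearest to the annotated gene LOC124900417 rather than to ARID1A. Another peak of 5.31 on 10 reads lay 27417 bases after the start. A further peak of 12.5 on 25 reads lay 3406 bp from the body, just outside the rule.

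ARID1B, the paralogue of ARID1A whose loss causes Coffin-Siris syndrome, is the longest gene of the family at 435 kb and had 2 peaks. The peak at chr6:156777147-156777618 had a fold enrichment of 7.11 on 28 reads, with its summit 69 bases before the second listed start. Its background of 3.0 was the highest at any BAF peak, and it ranked 2909 for height and 1404 for −log10 q. The other, of 7.32 on 19 reads, lay deep in the gene. BCL11B, a zinc finger factor of neurons and T cells, had a peak 2527 bp from its body at chr14:99274724-99274979 with a fold enrichment of 13 [8.67 to 18.8] and 26 reads. Its paralogue BCL11A, known for silencing fetal globin, had none, and the nearest peak lay 327 kb away.

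The DPF genes encode double PHD finger proteins that read acetylated histone tails, and are exchanged as neurons form. DPF2, the widely expressed member, had a peak of 8.9 on 20 reads, 341 bp past the end of the gene at chr11:65354603-65354835. That peak overlapped TIGD3, so it was nearer to another gene. DPF3, a neuronal subunit, had 2 low peaks. The one at chr14:72894152-72894326 had a fold enrichment of 5.79 and 11 reads, with its summit 151 bases before the start, and the one inside the gene had 5.02 on 10 reads. Both had a −log10 q under 5, at 4.24 and 2.97. The nearest peak to DPF1, the other neuronal member, lay 21.3 kb away.

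The start of DPF3 is shown because it is one of 2 neuronal subunits with a peak. The stretch is the minus strand at chr14:72894141-72894281, from 180 to 40 bases before the start, and its capitals mark ATTGG, the reverse complement of the CCAAT box. The copies begin 87 and 56 bases before the start, between the start and the summit, and no CANNTG is present.
DPF3: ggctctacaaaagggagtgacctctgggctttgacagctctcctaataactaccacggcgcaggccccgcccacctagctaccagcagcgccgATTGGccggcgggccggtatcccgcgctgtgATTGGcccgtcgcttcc

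In PBAF, 2 of 4 genes were bound, against 27.1% of genes of like length. ARID2, the DNA-binding subunit that sets PBAF apart, had peaks 1953 and 598 bp from its body, with fold enrichments of 12.4 [8.47 to 17.5] on 30 reads and 7.19 on 21 reads. PHF10, the progenitor PHD finger subunit, had a peak of 5.08 on 14 reads, 1746 bp past the end of the gene, where it overlapped WDR27 and C6orf120. The polybromo gene PBRM1, often lost in kidney cancer, and the bromodomain gene BRD7 had no peak within 3 kb, with the nearest at 305 and 17.8 kb. In non-canonical BAF, 1 of 3 genes was bound, against 26.1% of genes of like length. Of bound protein-coding genes, 79 had 4 or more peaks (1.84%). The bound member was BICRAL, with 4 peaks, the most of any member. A pair lay 719 and 169 bases before the first listed start, itself 648 bases inside the gene body, with fold enrichments of 7.85 and 5.89, near the tubulin cofactor gene TBCC, and a further pair of 6.21 and 6.58 lay at and after an inner start. Neither its paralogue BICRA nor BRD9 was bound, and their nearest peaks lay 7.67 and 53.2 kb away.

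The distance of 3 kb set in part which genes counted. The peaks just inside it were the second of BCL7A at 2156 bp, that of BCL11B at 2527 bp and the farthest of ARID1A at 2653 bp. Outside it lay the further ARID1A peak at 3406 bp and a second SMARCC2 peak at 9779 bp. BICRA, otherwise unbound, had a peak at 7672 bp with a fold enrichment of 4.58 on 13 reads. BCL11B and PHF10 (1746 bp) had no peak within 1 kb, whereas BCL7A and ARID1A also had peaks inside the gene. With the gene body alone, 14 members (45.2%) were bound against 16.0% of protein-coding genes. With 1 kb, the values were 17 members (54.8%) and 20.1%, and with 10 kb 20 members (64.5%) and 25.1%. Dropping peaks below 5-fold left 19 members bound (61.3%) against 19.7%, and a −log10 q of at least 5 left 15 (48.4%) against 17.2%. Without chromosomes 1, 6, 12 and 17, where the background was highest, 10 of 21 members were bound (47.6%) against 19.6%. When each peak counted only for its nearest protein-coding gene, 17 members (54.8%) were bound against 17.8%, since DPF2 and PHF10 gave their peaks to neighbours. In all, 8 of the 31 peaks lay within 3 kb of another protein-coding gene.

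BAF genes were longer than most, with a median of 51.0 kb against 24.1 kb, and bound protein-coding genes were longer than unbound ones, at 38.9 and 21.2 kb. Taking for each member the share of bound genes in its own length class gave 7.8 bound members, a difference of 36.1 percentage points from the share seen. Among the members, those bound were the shorter, with a median of 40.2 kb against 52.0 kb. CpG content of the start also moved with binding. Among genes with a promoter window, 7.18% were bound with 0 to 9 CpG in the window and 31.4% with 30 to 69. Of the 26 members with a window, 15 were bound (57.7%), against 30.6% of genes of like length and CpG class and 25.5% of like length alone. Expression and chromatin opening in these cells were not analysed here, and their part in these shares was not tested.

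Several peaks at 1 gene were more frequent among bound BAF genes than among bound genes at large. Of the 19 bound members 9 had more than 1 peak (47.4%), against 885 of the 4283 bound protein-coding genes (20.7%). The median length was 40.2 kb for bound members and 38.9 kb for bound protein-coding genes. These shares of genes with several peaks rest on the same peaks that chose the family, and were not tested.

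The neuronal and progenitor subunits were compared as counts. Of the neuronal subunits, 2 of 4 were bound, DPF3 and SS18L1, and 24.5% of genes of like length. All 4 of the progenitor counterparts ACTL6A, PHF10, DPF2 and SS18 were bound, against 21.7%. With a −log10 q of at least 5, 1 neuronal and 3 progenitor subunits remained. With the gene body alone, 2 neuronal and 2 progenitor subunits were bound, so the difference of the counts rested on peaks beside the genes DPF2 and PHF10. Against all 27 other subunits, of which 63% were bound, the order turned with the gene body alone, at 50% of the neuronal subunits and 44.4% of the others. With BCL11A and BCL11B placed among the neuronal subunits, 3 of 6 were bound, and 4 of 7 with SMARCD3 as well. Groups of 4 genes are too small to rank one above the other.

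Where the peaks lay relative to the start of a gene was not used to choose the family, although the same peaks were. RefSeq windows gave strand and starts for 26 of the 31 members, and those of SMARCC1, SMARCC2, ARID2, ACTL6A and ACTB were not used here. A peak lay within 1 kb of a listed start for 10 of the 26 (38.5%), against 2471 of 15843 genes with a window (15.6%). Among bound genes the shares were close, at 66.7% of 15 members and 70.3% of 3517 genes. Of the 25 peaks at members with strand, 13 had their summit within 1 kb of a start and 9 within 200 bp. The 9 lay at SMARCA4, SMARCD1, SMARCD2, SMARCD3, DPF3, SS18, ARID1B and, with a pair at separate starts, BICRAL. Matching shares of all peaks are not given here. Exon and intron positions were not analysed here.

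**Figure D3:**
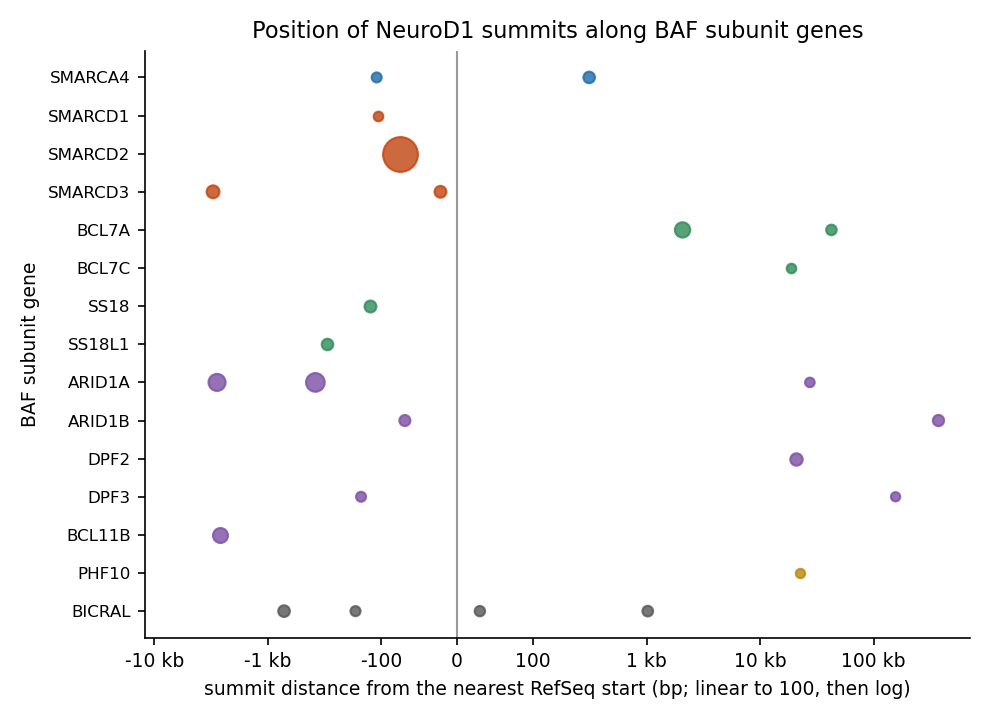
Distance of each peak summit from the nearest listed gene start (x axis, bp, linear to 100 and log beyond, negative before the start) for the members with strand, one line per gene, with point area proportional to fold enrichment. Summits lie within 200 bp of a start at 9 of the 25 peaks, with SMARCD2 76 bases before its start.

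E-boxes, the sequence of bHLH factors, were counted at the listed starts. Of 47 promoter windows of members, 24 held CANNTG (51.1%), against 65.1% of 22199 windows of protein-coding genes, counted on both strands. Among the 9 member windows that held a summit only 1 had CANNTG, that of BICRAL, against 57% of the 2041 windows with a summit at large. The form CAGATG or CATCTG, which is contained in CANNTG, was in 5 member windows (10.6%) and 12.2% of all, and in 0 of the 9. CAGCTG, also contained in CANNTG, was in 6 member windows (12.8%) and 18.0% of all. Windows with a summit were richer in CpG, with a median of 29 per window against 19 without one and 36 in the 9 member windows. Among windows of 30 to 69 CpG, CANNTG was in 51.9% with a summit and 50.4% without.

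The word CCAAT or ATTGG, chosen after the data were seen, was in 52.4% of all windows with a summit and 32.9% of those without, and in 44.7% and 23% at 30 to 69 CpG. Within 50 bases of the summit it was in 40.1% of windows, against 18.4% at the centre of windows without a summit, whereas CANNTG was in 26.7% and 31.7%. At the members it was in 14 of 47 windows (29.8%) and in 2 of the 9 with a summit, those of BICRAL and DPF3. Within 50 bases of the summit, however, CCAAT or ATTGG was in 0 of 8 member windows, as was CANNTG. These matches describe letters in windows of 300 bases and were not tested. The sequence under peaks outside these windows was not analysed here. The paper reports enrichment of NeuroD1 motifs over its binding sites, which is a different set and measure from the words counted here.

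Other remodeller families, listed for comparison, were bound by the same rule at shares above those of genes of like length as well. The CHD and NuRD family, as listed, holds chromodomain motors and NuRD subunits, histone deacetylases among them. Of its 19 genes, 12 were bound (63.2%, against 26.4% of like length). In the ISWI family, which spaces nucleosomes, 6 of 13 were bound (46.2%, 26.4%). In the INO80, SRCAP and TIP60 family, which exchanges histone variants and acetylates histones, 13 of 32 were bound (40.6%, 21.8%). The BAF share of 61.3% was thus next to that of CHD and NuRD, and no difference between families was tested.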

How the data were processed

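The data were the peaks of 1 NeuroD1 ChIP-seq library of IMR-32 cells. Per the labels' processing notes, the authors used BWA 0.7.17, hg38 and MACS2 2.2.7, while the deposited peak names say MACS3. As deposited, fold enrichment is a ratio of pileup to local background at the summit, after 1 is added to both. Deposited −log10 values give the Poisson p-value and the q-value, and the deposited score is 10 times the −log10 q cut to a whole number. The remaining deposited columns, such as the summit offset, are other values of the same peaks.

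ChIP reads and background at each summit were solved from fold enrichment and −log10 p with a weight of 0.98 per read, which was inferred from these columns and gave back the −log10 p of 100% of peaks within 0.003, against 43.9% at the next best weight. Intervals are exact Poisson at 95%, with the background held fixed. The solver and the overlap rule were tested on simulated data. Reads without molecular identifiers are not independent molecules, so intervals cover counting error only. Genes, starts and promoter sequences came from RefSeq GRCh38.p14 by symbol, and all 31 members matched. Like length means the same of 10 length classes of equal size, averaged over the members. No p-value was computed, since there was 1 library and the members were chosen from it.

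The members and lists were chosen with earlier results of these data known. All members are named, with every peak of a bound member, the protein-coding genes that share its peaks, and members whose nearest peak lay at 3 to 10 kb. Alternatives were other distances, thresholds of 5 for −log10 q and for fold enrichment, the summit, the nearest gene alone, other length classes, other neuronal lists and other words. Leaving out chromosomes 1, 6, 12 and 17 was added after the data were seen. Computations ran in Python 3.11.15 (scipy 1.17.1, numpy 2.4.6 and pandas 2.3.3), and plots were drawn with matplotlib 3.10.9.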

Additional observations from a re-analysis of the deposited data

How the results depend on the processing

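The count of 19 bound BAF genes was 15 with a −log10 q of at least 5. It stayed at 19 with a fold enrichment of at least 5 or with the summit in place of the interval. Without chromosomes 1, 6, 12 and 17 it was 10 of 21 (47.6%, against 19.6% of protein-coding genes). Those chromosomes held 9 of the 19 bound genes and, of the unbound members, only SMARCE1. The share of protein-coding genes bound on them alone is not given here. The 2 bound neuronal subunits became 1 with a −log10 q of at least 5 and 4 with BCL11A, BCL11B and SMARCD3 added. CANNTG was in a window of 15 of the 26 members with a window, CAGATG or CATCTG of 5 and CAGCTG of 6. Members differ in their number of windows, and matching counts over all genes are not given here. The like-length share was 25.5% with 5 classes and 24.6% with genes of nearly the same length as each member. The neuronal share, below that of the other subunits at 50% against 63%, lay above it with the gene body alone (50% against 44.4%) and without chromosomes 1, 6, 12 and 17 (50% against 47.1%, 8 of 17). No paired analysis was possible because there was 1 ChIP library, and no replicate could be left out. With a median of 17 reads at a summit, a missing peak was not detectable at this depth and is not shown to be absent, and the peaks of most members cannot be told apart in height.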

Other observations

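Among the other remodellers, the bound CHD and NuRD genes were CDK2AP1, CHD2, CHD3, CHD4, CHD6, CHD7, CHD8, CHD9, GATAD2A, GATAD2B, HDAC2 and MTA2, so 7 of the 9 CHD motors of the list had a peak. They include CHD7, mutated in CHARGE syndrome, and CHD8, linked to autism, while CHD5, a neuronal gene of the chromosome arm often lost in neuroblastoma, and CHD1 had none. The bound ISWI genes were BAZ1B, BAZ2A, BAZ2B, CECR2, CHRAC1 and POLE3, which are accessory subunits, and neither motor SMARCA1 nor SMARCA5 had a peak. In the INO80, SRCAP and TIP60 family the motors INO80 and EP400 were bound, as were RUVBL1 and RUVBL2, EPC1, INO80B, INO80C, MBTD1, MORF4L1, UCHL5, VPS72, YEATS4 and YY1, and SRCAP was not. Among genes of like length and CpG class, the shares were 29.2% for CHD and NuRD (62.5% of its genes with a window bound), 27.6% for ISWI (50%) and 26.0% for INO80, SRCAP and TIP60 (42.9%). These counts come from the same single library and were not tested.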
